A study of Rattus norvegicus with 12 samples.

Results

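Usp2, Wee1, Csnk1e, Csnk1d and Bhlhe40, genes that receive their rhythm from the circadian clock or act on its proteins, were followed rat by rat in the renal cortex of lean rats, obese rats and obese rats given an SGLT2 inhibitor. They were the members found in the expression table of a list of 8 genes chosen by name (5 of 8 listed, among 13151 genes). The list was chosen with earlier results of these data known, so its counts beside all genes are descriptions. Bhlhe41, Hlf and Rora were not among the rows used here and were not analysed here. Each gene is set beside Arntl and Dbp of the same rats. The groups were 4 Zucker lean (ZL) rats, 4 Zucker fatty (ZF) rats, which lack a functional leptin receptor, and 4 ZF rats given canagliflozin, a blocker of glucose reuptake in the proximal tubule, at 10 mg/kg/day over 8 weeks starting at week 24 (ZF-SGLT2i). All 12 rats were male and 32 weeks old, and cortex RNA was sequenced from each rat. Between 8824980 and 12210257 reads per rat were recovered from the deposited values. Values are TMM-scaled CPM, which are read counts scaled to library size after the libraries were set level by the trimmed mean of M-values (TMM). They are not divided by transcript length, so levels are compared between rats and never between genes.

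The hour of tissue collection is not given in the sources used here, and neither is whether the groups were collected together. Group and hour of collection therefore cannot be told apart in any result on a clock gene. The methods describe open wedge biopsies of the kidney earlier in life in ZL rats and in a first set of ZF rats. No biopsy is described for the separately bought rats of the treatment study. The sequenced untreated obese rats are called ZF, as in the first set, and also ZF-NT, as in the treatment study. If they came from the treatment study, biopsy and genotype cannot be told apart in the comparisons with ZL rats. If they came from the first set, biopsy and treatment cannot be told apart in ZF-SGLT2i against ZF. Either way, biopsy goes with the group in ZF-SGLT2i against ZL. The cortex was bulk tissue, in which fewer cells of a type and less RNA per cell cannot be told apart.

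In the circadian clock, the activators ARNTL (also called BMAL1) and CLOCK or NPAS2 bind E-box elements and switch on the Per and Cry genes, whose proteins then block the activators. The nuclear receptors NR1D1 and NR1D2 repress Arntl, the ROR receptors activate it, and the rhythm is passed on by D-box factors such as DBP, TEF and HLF. Casein kinases 1 delta (Csnk1d) and epsilon (Csnk1e) phosphorylate PER proteins, the deubiquitinase USP2 removes ubiquitin from clock proteins, WEE1 kinase restrains entry into mitosis, and BHLHE40 and BHLHE41 repress E-box genes. In kidney, clock-driven transcription is known to include transporters of the tubule.

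Promoter windows were read from the RefSeq table for GRCr8, from 250 bases before to 50 after a start site, and 7 of the 10 genes (the 8 listed, Arntl and Dbp) had an entry. Hlf, Wee1 and Csnk1d had none. The E-box CACGTG, the D-box TTATGNAA and the nuclear receptor motif AGGTCA were searched on both strands. The windows of Usp2, Bhlhe40 and Arntl are shown because they were the windows of genes in the expression table that held a searched motif, in capitals. The Usp2 window (chr8:53310620-53310919, plus strand) holds AGGTCA from base -70 to base -65, and its start site lies within the annotated gene (chr8:53308264-53336800).

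Usp2: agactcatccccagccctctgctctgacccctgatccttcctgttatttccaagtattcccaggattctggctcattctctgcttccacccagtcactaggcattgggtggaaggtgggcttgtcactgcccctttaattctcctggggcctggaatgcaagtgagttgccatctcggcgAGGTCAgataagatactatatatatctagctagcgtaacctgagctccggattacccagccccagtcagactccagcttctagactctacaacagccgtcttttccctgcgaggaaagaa

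The Bhlhe40 window (chr4:143174200-143174499, plus strand) holds an E-box from base -220 to base -215.

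Bhlhe40: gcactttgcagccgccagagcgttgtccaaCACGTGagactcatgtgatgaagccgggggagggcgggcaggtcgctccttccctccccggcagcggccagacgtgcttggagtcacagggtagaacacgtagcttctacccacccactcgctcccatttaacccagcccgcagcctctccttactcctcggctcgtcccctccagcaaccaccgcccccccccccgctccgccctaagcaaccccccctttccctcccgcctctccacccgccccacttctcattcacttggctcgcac

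The Arntl window (chr1:176766078-176766377, plus strand) holds AGGTCA from base -15 to base -10.

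Arntl: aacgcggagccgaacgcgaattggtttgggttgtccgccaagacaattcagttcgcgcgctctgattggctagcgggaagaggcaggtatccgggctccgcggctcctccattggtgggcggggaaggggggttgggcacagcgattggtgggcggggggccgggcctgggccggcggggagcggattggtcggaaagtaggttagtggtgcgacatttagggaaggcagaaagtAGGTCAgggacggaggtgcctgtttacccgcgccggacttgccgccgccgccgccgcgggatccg

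Among 33469 promoter windows of the same length, 6.42% held the E-box, 3.66% the D-box and 16.2% AGGTCA. The windows of Csnk1e and Dbp held none of these letters. Of the members without a row, Bhlhe41 had an E-box from base -48 to base -43 and Rora had no match. A match is a description of the letters and not a site of binding.

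Arntl, which encodes an activator of the clock, and Dbp, a gene that the activators drive, separated the obese from the lean rats. Arntl was 51.4, 47.9, 42.7 and 30.4 CPM in ZL rats 1 to 4, and 3.64, 2.31, 7.01 and 1.42 CPM in ZF rats 2 to 5. In ZF-SGLT2i rats 2, 3, 4 and 6 it was 2.86, 1.82, 2.72 and 2.34 CPM. Every treated or untreated obese rat was below every lean rat, with no overlap. The share of all genes with every obese rat below every lean rat was not counted. Dbp went the other way, at 25.3, 37.5, 34.0 and 65.9 CPM in ZL, 250, 297, 182 and 286 CPM in ZF, and 296, 257, 334 and 299 CPM in ZF-SGLT2i rats, in the same order. The ratio of Dbp to Arntl within a rat ran from 0.492 to 2.17 among lean rats, from 26.0 to 201 among untreated and from 104 to 141 among treated obese rats. ZF rat 4 had the lowest ratio among the obese rats and ZL rat 4 the highest among the lean rats. On the log2(value + 1) scale the ZF minus ZL difference was -3.38 for Arntl and 2.68 for Dbp (limma, adjusted p = 1.1e-05 for each).

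**Figure D1:**
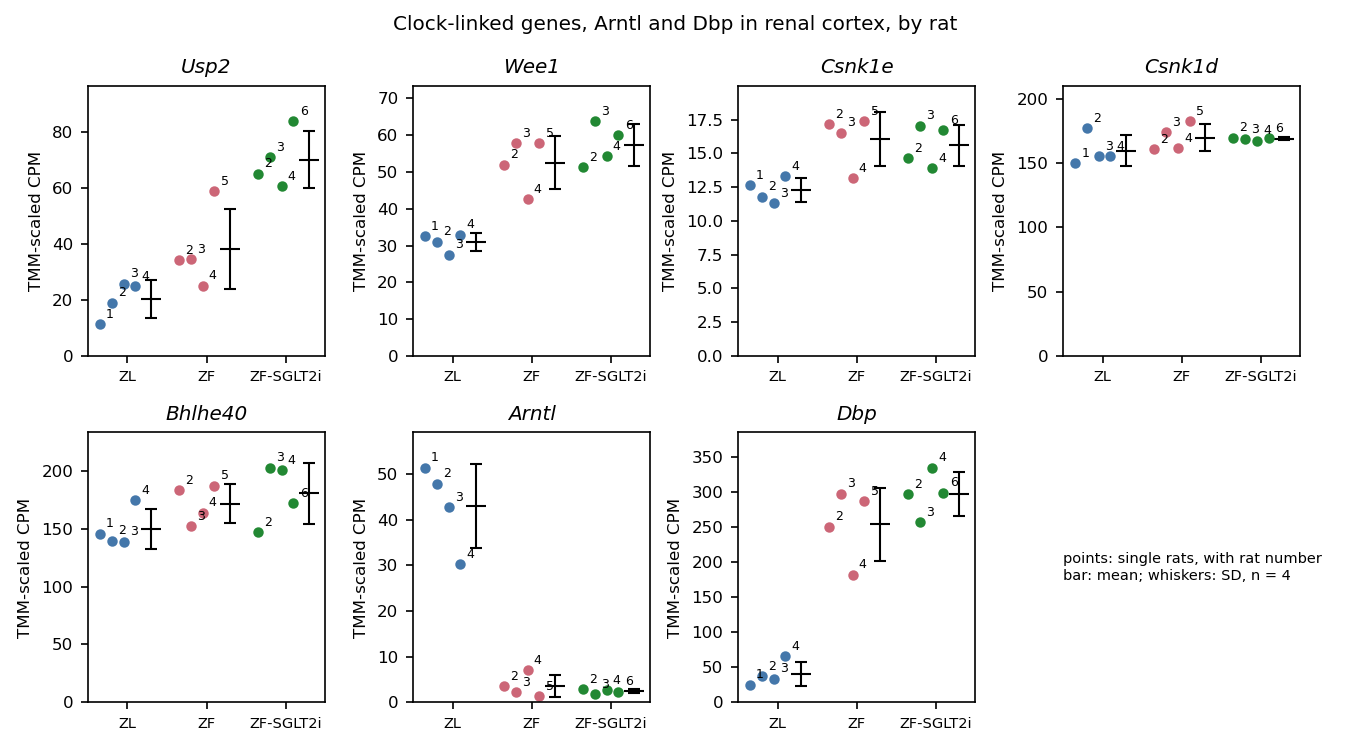
TMM-scaled CPM (vertical axis) of Usp2, Wee1, Csnk1e, Csnk1d, Bhlhe40, Arntl and Dbp in each of the 12 rats, by group. Points are single rats with their rat numbers, bars are means and whiskers are SD (n = 4); Wee1 of every ZF rat (42.6 CPM or more) lies above every ZL rat (33.0 CPM or less), while Csnk1d and Bhlhe40 overlap between all groups.

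The question of the first comparison was which of the 5 genes differed between obese and lean cortex. Usp2, Wee1 and Csnk1e had higher levels in the ZF group, and Csnk1d and Bhlhe40 did not pass the test. This is 3 of 5 genes higher and 0 lower, where 8.19% of the 11633 genes tested were higher, 10.6% lower and 18.8% called in either direction. The median log2 difference of the 5 genes was 0.36, against -0.0077 over all genes tested. The smallest exact permutation p that 4 rats against 4 allow is 0.0286, two-sided.

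Wee1, the kinase that holds back cyclin-dependent kinase 1, was the 1 gene of the 5 whose ZL and ZF values did not overlap. It was 32.5, 31.0, 27.6 and 33.0 CPM in ZL rats 1 to 4, with a mean of 31.0 ± 2.44 CPM (SD, n = 4). In ZF rats 2 to 5 it was 52.0, 57.8, 42.6 and 57.8 CPM, with a mean of 52.6 ± 7.17 CPM (SD, n = 4). ZF rat 4 lay nearest to the lean rats and was still above all of them. Groups without overlap and higher in ZF made up 8.67% of the genes tested. The means differed 1.70-fold and the log2 difference was 0.74 ± 0.10 (SE), with an adjusted p of 0.000488 by limma and an exact permutation p of 0.0286. Wee1 lies at chr1:173605609-173632450 on GRCr8, and 243 to 577 reads per rat stood behind these values.

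Usp2, a ubiquitin-specific protease, varied most between rats of 1 group among the 5 genes in both ZL and ZF. It was 11.3, 19.1, 25.9 and 25.0 CPM in ZL rats 1 to 4 (mean 20.3 ± 6.72, SD, n = 4). In ZF rats 2 to 5 it was 34.1, 34.7, 25.1 and 58.8 CPM (mean 38.2 ± 14.4, SD, n = 4). The groups overlapped, because ZF rat 4 was below ZL rat 3, and ZF rat 5 stood above the rest of its group. The means differed 1.88-fold and the log2 difference was 0.88 ± 0.25 (SE), with an adjusted p of 0.0276 by limma and an exact permutation p of 0.0571. The call was lost without ZL rat 1 (adjusted p = 0.0751 by limma), ZF rat 2 (0.0523), ZF rat 3 (0.0577) or ZF rat 5 (0.0730), and with only the 2 groups in the fit (0.0645). With the replicate block the log2 difference was 0.41 and the adjusted p 0.0994 by limma. The ZL libraries held 126 to 280 Usp2 reads and the ZF libraries 294 to 538.

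Csnk1e and Csnk1d encode close relatives that both phosphorylate PER proteins. Csnk1e (chr7:112863726-112887338) was 12.7, 11.8, 11.3 and 13.3 CPM in ZL rats 1 to 4 and 17.2, 16.5, 13.2 and 17.4 CPM in ZF rats 2 to 5. ZF rat 4 fell just below ZL rat 4, and the other ZF rats were above all lean rats. The means were 12.3 ± 0.880 and 16.1 ± 1.97 CPM (SD, n = 4 each), a 1.31-fold difference. The log2 difference was 0.36 ± 0.10 (SE), with an adjusted p of 0.0269 by limma and an exact permutation p of 0.0571. Csnk1e had only 100 to 179 reads per rat. Its call was lost by leaving out any 1 of ZL rats 1, 2 and 3 or ZF rats 2, 3 and 5, with adjusted p from limma between 0.0524 and 0.0769, and with the replicate block (0.156).

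Csnk1d (chr10:106713497-106754953) was 150, 177, 155 and 156 CPM in ZL rats 1 to 4 and 161, 174, 161 and 183 CPM in ZF rats 2 to 5. ZL rats 1, 3 and 4 were below all ZF rats, and the groups overlapped through ZL rat 2, which exceeded 3 of the 4 ZF rats. The log2 difference was 0.09, with a 95% interval from -0.04 to 0.22 and an adjusted p of 0.332 by limma. The other casein kinase 1 genes (Csnk1a1, Csnk1g1, Csnk1g2 and Csnk1g3) were called in 0 of 4 cases in each comparison by limma, edgeR and DESeq2. Of all genes tested, limma called 18.8% in ZF against ZL, 3.15% in ZF-SGLT2i against ZF and 27.4% in ZF-SGLT2i against ZL. At an unadjusted p under 0.05, limma gave 1 of these 4 kinase genes in ZF-SGLT2i against ZL and 0 in the other comparisons. Reads shared between such related genes could be split by the counting, which is not described in enough detail to tell.

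Bhlhe40, a repressor that competes for E-boxes and also answers to hypoxia and hormones, was 146, 140, 139 and 175 CPM in ZL rats 1 to 4. It was 184, 152, 164 and 187 CPM in ZF rats 2 to 5. ZL rat 4 lay within the ZF range, and the means were 150 ± 16.9 and 172 ± 16.6 CPM (SD, n = 4 each). The log2 difference was 0.20, with a 95% interval from -0.03 to 0.43, an adjusted p of 0.223 by limma and an exact permutation p of 0.114.

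The second comparison asked what SGLT2 inhibition changed in obese cortex. By limma, 0 of the 5 genes were called in ZF-SGLT2i against ZF rats, where 3.15% of all genes tested were called (1.39% higher and 1.75% lower). edgeR and DESeq2 also called 0, and limma gave 1 gene (Usp2) at an unadjusted p under 0.05. Arntl and Dbp had log2 differences of -0.29 and 0.24 (limma, adjusted p = 0.667 and 0.636). The ZF rats were shared with the first comparison, so an unusual ZF rat enters both.

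Usp2 was 65.1, 70.9, 60.7 and 83.8 CPM in ZF-SGLT2i rats 2, 3, 4 and 6, with a mean of 70.1 ± 10.0 CPM (SD, n = 4). Every treated rat was above every untreated ZF rat, although ZF rat 5 at 58.8 CPM came close to treated rat 4. Groups without overlap and higher in ZF-SGLT2i made up 5.54% of the genes tested. The means differed 1.84-fold and the log2 difference was 0.92, with a 95% interval from 0.38 to 1.46. The adjusted p was 0.0676 by limma and the exact permutation p was 0.0286. Usp2 passed without ZF rat 5 (adjusted p = 0.0135 by limma), ZL rat 1 (0.0322) or ZL rat 4 (0.0496), with array quality weights (0.0270), with the replicate block (0.0150) and with only the 2 groups in the fit (0.0268). It had an adjusted p of 0.187 without ZF rat 4, 0.0711 by edgeR and 0.0633 by DESeq2.

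Wee1 was 51.2, 63.8, 54.3 and 60.1 CPM in ZF-SGLT2i rats 2, 3, 4 and 6, and Csnk1e was 14.7, 17.1, 13.9 and 16.7 CPM. Both genes stayed within or close to the range of the untreated ZF rats. The log2 difference was 0.13 for Wee1 (95% interval from -0.09 to 0.35) and -0.04 for Csnk1e (from -0.26 to 0.18). Csnk1d was 170, 169, 167 and 170 CPM, the tightest of all member groups, with a coefficient of variation of 0.653%. Its interval ran from -0.14 to 0.13. Bhlhe40 was 147, 203, 200 and 172 CPM, so treated rats 3 and 4 exceeded all ZF rats and treated rat 2 was below all of them. Its log2 difference was 0.07 (limma, adjusted p = 0.812).

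**Figure D2:**
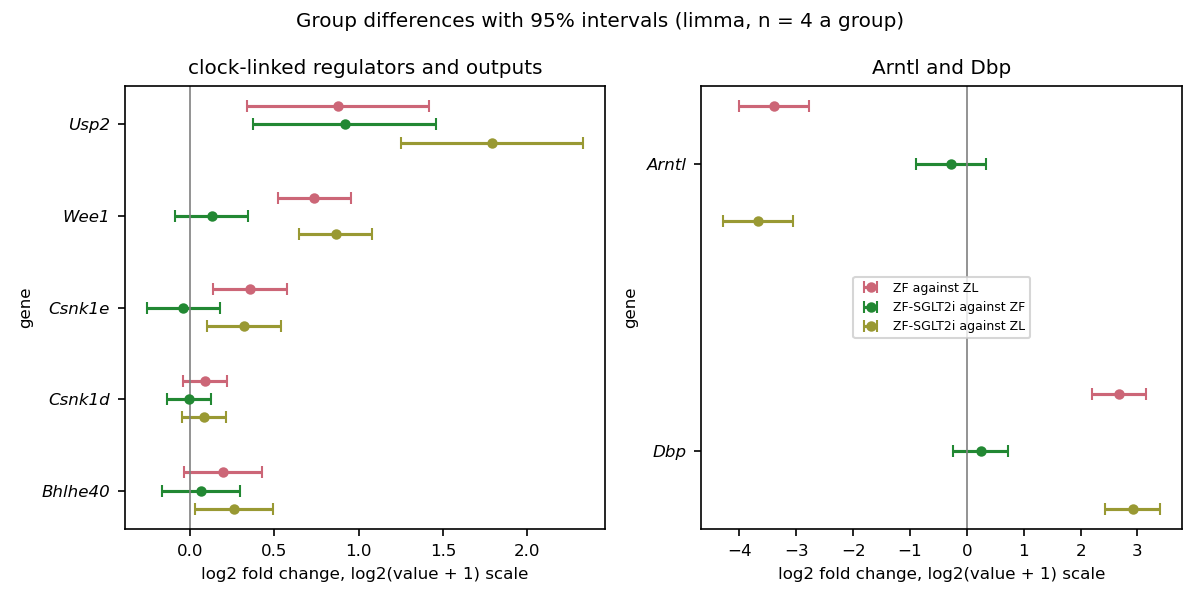
Log2 differences on the log2(value + 1) scale (horizontal axis) with 95% intervals from limma for the 5 genes (left) and for Arntl and Dbp (right, a wider axis), in 3 comparisons of 4 rats against 4. Usp2 is the only gene of the left panel whose interval in ZF-SGLT2i against ZF (0.38 to 1.46) lies above 0, and its adjusted p was 0.0676.

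Set against lean rats, the treated obese rats showed the same 3 genes higher. Usp2, Wee1 and Csnk1e were called in ZF-SGLT2i against ZL, 3 of 5 higher and 0 lower, where 12.4% of all genes tested were higher, 15% lower and 27.4% called in either direction. Each of the 3 had no overlap between the groups, as did 12.9% of the genes tested in that direction. The Usp2 means differed 3.45-fold (log2 difference 1.79, limma adjusted p = 0.000279). The log2 difference was 0.86 for Wee1 (limma, adjusted p = 7.5e-05) and 0.32 for Csnk1e (limma, adjusted p = 0.0326). Csnk1e lost its call without ZL rat 1, 2 or 3 or ZF-SGLT2i rat 3 or 6 (limma, highest adjusted p = 0.0961) and with the replicate block (0.171). Bhlhe40 had a log2 difference of 0.26 with an adjusted p of 0.0861 by limma, and passed without ZL rat 4 (0.0334) or ZF-SGLT2i rat 2 (0.0212), under quantile normalization (0.0267) and with array quality weights (0.0489). Csnk1d had a log2 difference of 0.09 (limma, adjusted p = 0.322).

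Within the ZL and ZF groups, single rats held the same end for several clock genes, and treated rats 3 and 4 took opposite ends for some clock genes and some of the 5 genes. Over the 8 clock genes called higher in ZF against ZL (Per2, Per3, Cry2, Ciart, Nr1d1, Nr1d2, Dbp and Tef), ZF rat 4 was the lowest ZF rat in 7. It was also the lowest ZF rat for Usp2, Wee1 and Csnk1e. Within ZL, rat 1 was lowest in 8 of these 8 genes and lowest for Usp2, but it ranked above rats 2 and 3 for Wee1 and Csnk1e. ZL rat 4, with the highest Dbp and the lowest Arntl of the lean rats, was the highest lean rat for Wee1, Csnk1e and Bhlhe40. ZF rat 5 was the highest ZF rat in 4 of the 5 genes. ZF-SGLT2i rat 3 was the lowest treated rat in 5 of the 8 clock genes, Dbp included, and the highest for Wee1, Csnk1e and Bhlhe40. ZF-SGLT2i rat 4 was the highest treated rat in 4 of the 8, Dbp included, and the lowest for Usp2, Csnk1e and Csnk1d. Ciart is among the 8 clock genes and is counted in each of their tallies, although it passed the filter only through the obese rats. Its order among the lean rats rests on 4 to 11 reads. These orders are descriptions of single rats and carry no test.

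**Figure D3:**
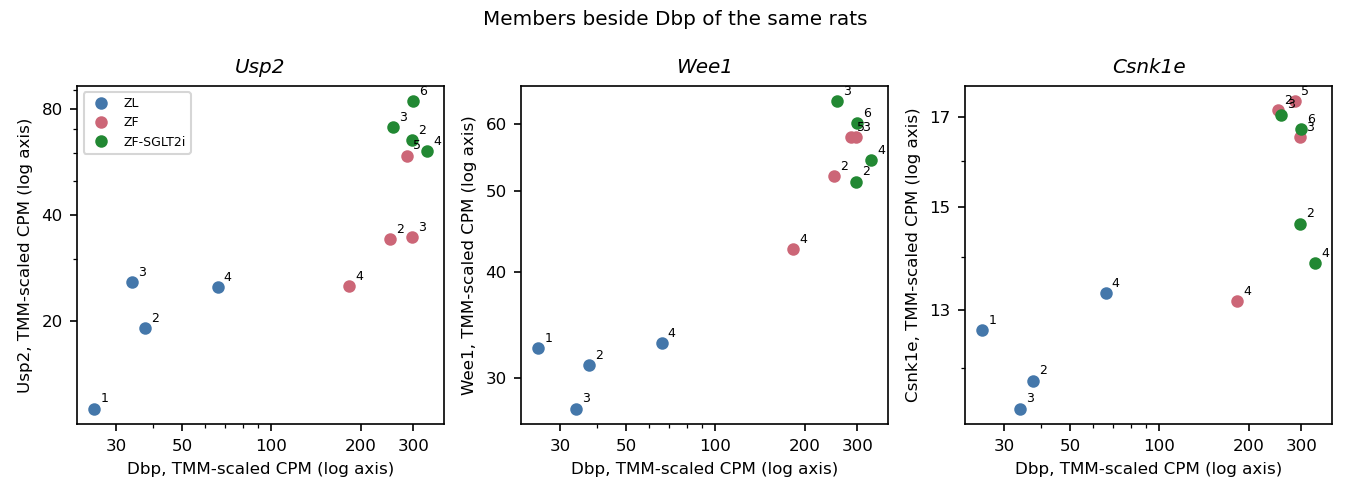
Usp2, Wee1 and Csnk1e (vertical axes, TMM-scaled CPM, log axes) against Dbp of the same rat (horizontal axes, TMM-scaled CPM, log axis), 1 point per rat with its rat number. ZF rat 4, with the lowest Dbp of the obese rats (182 CPM), lies nearest to the lean rats in all 3 panels. Among the treated rats the order turns: rat 4, with the highest Dbp (334 CPM), is lowest for Usp2 and Csnk1e, and rat 3, with the lowest (257 CPM), is highest for Wee1 and Csnk1e.

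The rest of the clock gave the setting for these genes. Of 16 core clock genes listed, 14 could be tested. In ZF against ZL, 8 were higher and 4 lower by limma, where 8.19% of all genes tested were higher and 10.6% lower. In ZF-SGLT2i against ZL, 9 were higher and 4 lower by limma, where 12.4% of all genes were higher and 15% lower, and edgeR and DESeq2 each called 12 of the 14 in place of 13. Ciart was below 1 CPM in all 4 lean rats (4 to 11 reads) and could be tested only because of the obese rats. Without Ciart, 7 of 13 were higher and 4 lower in ZF against ZL, and 8 were higher and 4 lower in ZF-SGLT2i against ZL. In ZF-SGLT2i against ZF, limma, edgeR and DESeq2 called 0 of the 14, with 3 at an unadjusted p under 0.05 by limma. Limma called 3.15% of all genes tested there. The median log2 differences of the 14 were 0.87 for ZF against ZL, 1.13 for ZF-SGLT2i against ZL and 0.16 between the obese groups (0.87, 1.01 and 0.14 without Ciart). Those over all genes tested were -0.0077, -7e-05 and 0.0064 in that order.

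Among the activators, Arntl, Npas2 and Clock were lower in ZF, with log2 differences of -3.38, -2.27 and -0.40. Among the E-box repressors, Per2 (1.20), Per3 (1.84) and Cry2 (0.87) were higher in ZF, while Per1 (0.75, limma adjusted p = 0.192) and Cry1 (-0.03) did not pass. Ciart (2.28) entered the fit only because of the obese rats, so its difference is given with no test. Per1, which glucocorticoids also induce, was called higher in ZF-SGLT2i than in ZL by limma alone (log2 difference 1.25, adjusted p = 0.0273 by limma, 0.0526 by edgeR and 0.0658 by DESeq2). Nr1d1 (0.88) and Nr1d2 (1.27), the repressors of Arntl, were higher in ZF. Of the D-box factors, Dbp (2.68) and Tef (1.23) were higher and Nfil3 (-1.66), which represses through the same element, was lower. Arntl2 and Rorb were too low to test.

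**Figure D4:**
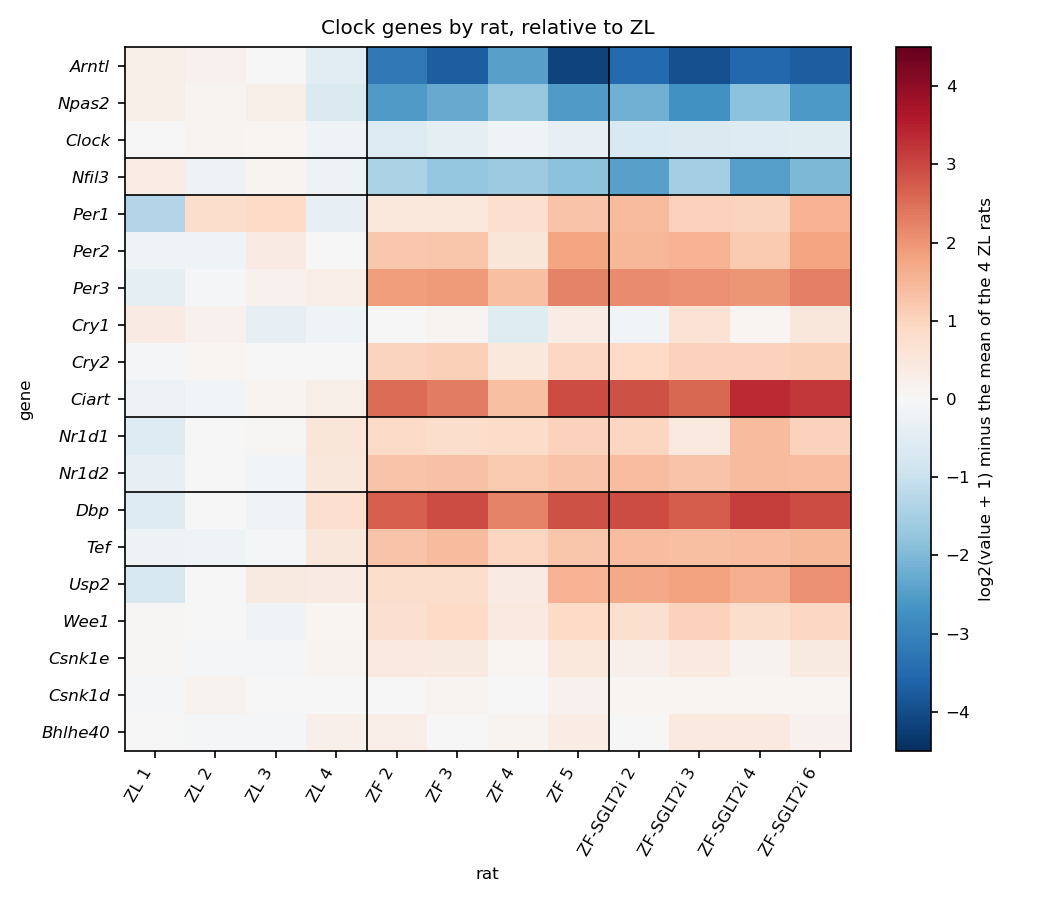
Log2(value + 1) of each clock gene in each rat minus the mean of the 4 ZL rats (color), with genes in rows by role and rats in columns by group. Arntl, Npas2 and Nfil3 are low and Dbp, Ciart and Per3 high in all 8 obese rats, Usp2 is highest in the treated rats, and Csnk1d stays near the lean mean.

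Clock proteins are also marked for turnover by other kinases and by ubiquitin ligases. Of 7 such genes tested (Btrc, Fbxw11, Gsk3a, Gsk3b, Csnk2a1, Csnk2a2 and Csnk2b), 0 were higher in ZF against ZL and 1 was lower, where 8.19% of all genes tested were higher and 10.6% lower. That gene was Csnk2b, the regulatory subunit of casein kinase 2, at 65.5 ± 2.47 CPM in ZL and 55.2 ± 2.91 CPM in ZF (SD, n = 4 each; limma, adjusted p = 0.0187). Csnk2b was also lower in ZF-SGLT2i than in ZL by limma (adjusted p = 0.0437) and edgeR (0.0444), and did not pass by DESeq2 (0.0505). In ZF-SGLT2i against ZF, limma, edgeR and DESeq2 called 0 of the 7, as did limma at an unadjusted p under 0.05. Limma called 3.15% of all genes tested there.

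WEE1 acts on CDK1 with cyclin B and is opposed by the CDC25 phosphatases. Of 8 such partners, Cdc25c was 0.922 ± 0.311 CPM in ZL and 1.75 ± 0.477 CPM in ZF rats (SD, n = 4 each). Only 2 ZL rats reached 1 CPM, so Cdc25c entered the fit only because of the obese rats, and its difference is given with no test. Ccnb1, which encodes cyclin B1, was lower in ZF-SGLT2i than in ZF (1.11 ± 0.311 and 2.59 ± 0.442 CPM, SD, n = 4 each; limma, adjusted p = 0.0156). Cdc25b was higher in ZF-SGLT2i than in ZL (log2 difference 0.62, limma adjusted p = 0.00695). Ccnb1 and Cdc25c had at most 34 reads in any rat. Of the 7 partners other than Cdc25c, limma and edgeR called 0 in ZF against ZL, where 18.8% of all genes tested were called, with 3 at an unadjusted p under 0.05 by limma. DESeq2 called 1 there, Cdc25b (adjusted p = 0.0414). Limma called 1 of the 7 in ZF-SGLT2i against ZF and 1 in treated against lean rats, where 3.15% and 27.4% of all genes tested were called.

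For each of the 3 called members, the genes with the most similar values over the 12 rats were found by the root mean square (RMS) log2 difference after each gene was centred on its mean. Nearest to Usp2 were Brinp1 (RMS difference 0.31), Fkbp5 (0.32) and Per2 (0.32), against an RMS deviation of 0.82 of Usp2 from its own mean. By this measure Dbp stood at rank 4290 for Usp2, with an RMS difference of 0.80, at rank 11478 for Wee1 (0.99) and at rank 11575 for Csnk1e (1.20), of 11633 genes tested. Arntl stood at rank 11625 for Usp2 and 11624 for Wee1 and for Csnk1e. The measure is not scaled to the size of a gene's change. Dbp and Arntl changed more than the members, so these ranks do not tell whether the rats were ordered alike. Nearest to Wee1 were Sec14l1 (0.093), Tspan4 (0.10) and Rab43 (0.11), against 0.40 for Wee1 itself. Nearest to Csnk1e were Dysf (0.076), Ripk4 (0.077) and Plekhm2 (0.082), against 0.20.

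Fkbp5, a gene that glucocorticoids induce, ranged from 35.5 to 102 CPM in lean, from 56.4 to 125 CPM in untreated obese and from 121 to 249 CPM in treated obese rats. In ZF-SGLT2i against ZF the log2 difference of Fkbp5 was 1.06 (limma, adjusted p = 0.102), beside 0.92 for Usp2 (limma, adjusted p = 0.0676). Fkbp5 was picked for values close to those of Usp2 in these same rats, so this likeness was built in and supports nothing. The treated and untreated ZF ranges of Fkbp5 overlapped only through ZF rat 5 and treated rat 4. Whether Fkbp5 and Usp2 differed from each other was not tested. Of 6 glucocorticoid-induced genes fixed as a list, limma, edgeR and DESeq2 called 0 in ZF against ZL. Limma called 18.8% of all genes tested there, and 0 of the 6 had an unadjusted p under 0.05 by limma. In ZF-SGLT2i against ZF limma and edgeR called 0 and DESeq2 called 1, with 3 at an unadjusted p under 0.05 by limma. Limma called 3.15% of all genes tested in that comparison. In ZF-SGLT2i against ZL, Fkbp5 (log2 difference 1.34), Per1 (1.25) and Tsc22d3 (0.64) were higher by limma, 3 of 6 where 12.4% of all genes tested were higher, and edgeR and DESeq2 each called 2, without Per1. The part of glucocorticoid signaling in the Usp2 values was not tested.

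The labelled cortex carried its defining markers. Markers of the proximal tubule, led by Lrp2, summed to 18142 to 20310 CPM in lean, 13403 to 17627 CPM in untreated obese and 11391 to 15039 CPM in treated obese rats, so the lean rats lay above all obese rats. Without Lrp2 the other 5 markers summed to 7698 to 9702, 6708 to 8096 and 6334 to 7656 CPM, and the lean and untreated obese rats overlapped. Of the 6 markers, Aqp1 was lower in ZF than in ZL by limma (adjusted p = 0.0267), where 10.6% of all genes tested were lower. Lrp2 passed there by edgeR (0.0335) and DESeq2 (0.00357) and not by limma (0.0731). Lrp2 and Slc34a1 were lower in ZF-SGLT2i than in ZL (limma, adjusted p = 0.00573 and 0.0297), where 15% of all genes tested were lower. Podocyte markers, led by Podxl, summed to 1091 to 1457, 1371 to 1755 and 1372 to 1764 CPM in the same order. Of the 5, Nphs1, Podxl and Synpo were higher in ZF than in ZL (log2 differences 0.47, 0.40 and 0.34, limma adjusted p = 0.00930, 0.0328 and 0.0189) and were also called higher in ZF-SGLT2i against ZL. Collecting duct markers, led by Aqp2, summed to 1066 to 1694, 1131 to 1656 and 1837 to 2123 CPM, with every treated rat above all others. Of these markers only Aqp2 itself set every treated rat above all others. Atp6v1b1 (195 to 315 CPM in ZL, 289 to 331 CPM in ZF-SGLT2i) and Slc4a1 (428 to 621 and 571 to 588 CPM) overlapped between lean and treated rats. Aqp3 overlapped between the obese groups (148 to 209 CPM in ZF, 195 to 268 CPM in ZF-SGLT2i). Aqp2 was higher in ZF-SGLT2i than in ZF by limma (log2 difference 0.62, adjusted p = 0.0495) and DESeq2 (0.00614), and did not pass by edgeR (0.0567). Thick limb and distal tubule markers, led by Umod, summed to 6120 to 7656 CPM over the 12 rats. Within that list, Umod (2966 ± 735 CPM in ZF and 1856 ± 215 CPM in ZF-SGLT2i) and Slc12a3 (2255 ± 457 and 2989 ± 142 CPM; SD, n = 4 each) lay apart in opposite directions without overlap between the obese groups. Neither passed by limma (adjusted p = 0.0917 and 0.198), and DESeq2 gave Umod an adjusted p of 0.0107. Genes without overlap and higher in ZF-SGLT2i than in ZF made up 5.54% of those tested, and the share lower was not counted.

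Markers of skeletal muscle (3 of 4 listed in the table) summed to at most 0.987 CPM in any rat, and Cd3e, the T cell marker, was at most 0.984 CPM. Blood markers, led by Hba1, summed to 0.780 to 3.06, 2.00 to 12.8 and 0.505 to 22.0 CPM in ZL, ZF and ZF-SGLT2i rats. Macrophage markers, led by Csf1r, summed to 35.2 to 53.7, 46.8 to 75.1 and 38.8 to 83.5 CPM, and endothelial markers, led by Kdr, to 235 to 344, 317 to 379 and 292 to 397 CPM. Inner medulla markers, led by Aqp4, summed to 36.8 to 85.0, 46.2 to 75.1 and 82.8 to 125 CPM, and adipocyte markers, led by Adipoq, to 8.89 to 17.8 CPM over the 12 rats. The ribosomal RNA genes Rn28s and Rn45s took 7.25% to 12.0% of reads in lean, 8.82% to 12.0% in untreated obese and 11.5% to 15.2% in treated obese rats. The part of cell makeup, of ribosomal reads and of the hour of collection in the Usp2, Wee1 and Csnk1e values was not tested.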

How the data were processed

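Renal cortex RNA of 12 rats was sequenced by the authors from rRNA-depleted directional libraries. The submitters' processing notes name Trimmomatic 0.38, RSEM 1.3.0, Bowtie2, edgeR and the rat build rn6, without role or order. The authors deposited 1 table of normalized signal, in which each rat's values are multiples of 1 step, the worth of a single read, as in TMM-scaled CPM. All values were whole multiples within 1e-06 reads, and the table held no gene under 12 reads over all rats. For ZF rat 3 and ZF-SGLT2i rats 3 and 4 an automatic check did not accept the recovered counts, because the step lies close to a round number, so count tests served only as alternatives. Whether counting used strand is not given in the sources used here.

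Groups came from the sample titles. Genes with at least 1 CPM in at least 4 rats (11633; 1518 were not tested) were fitted as log2(value + 1) by limma 3.58.1 in R 4.3.3 with all 12 rats in 1 fit, two-sided, with Benjamini-Hochberg adjustment over all genes tested and calls at an adjusted p under 0.05. Log2 differences understate the change of low genes. Single genes also had an exact permutation test over 70 assignments. The code was tested on simulated data. Alternatives were edgeR 4.0.16, DESeq2 1.42.0, other scalings, filters and pseudocounts, array weights, a replicate block and each rat left out. Between replicates the chi-square statistic per gene was 5.43 to 50.1, so no library was a copy of another of its group. Libraries of different groups were not compared in this way. Rat numbers are taken to be separate animals.

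Named genes were the listed members, Arntl, Dbp, called genes and defining markers of the fixed lists, and the 3 nearest genes by values of each called member. The members and lists were chosen with earlier results of these data known, and some genes of the lists are not reported here. Gene positions, symbols and promoter windows came from RefSeq GRCr8, not from the build of the table, where 12146 of 13151 symbols matched. Protein identity of related members was planned and not done, as no protein table was used here.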

Additional observations from a re-analysis of the deposited data

Results flagged for a closer look

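Tef, a D-box factor of the same family as Dbp, was 149 CPM in ZL rat 4 against 89.1 to 98.7 CPM in the other 3 lean rats, a gap larger than Dixon's 95% critical value for 4 samples. It was the 1 such value among 90 groups of 4 rats (30 genes in 3 groups), where chance gives about 4.5.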

How the results depend on the processing

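Of 483 recomputed gene differences (5 members, Arntl and Dbp, 3 comparisons, 23 alternatives), 448 kept direction and side of the threshold, 19 lost the call, 10 gained it and 6, none of them called, changed sign. Wee1 kept its calls against ZL in all 23 (ZF against ZL, highest adjusted p = 0.0207 by limma), as did Arntl and Dbp. Leaving out 1 rat gave 1 to 3 members called in ZF against ZL, 0 to 1 (Usp2) in ZF-SGLT2i against ZF and 2 to 4 in ZF-SGLT2i against ZL. In ZF-SGLT2i against ZF, 1 member (Usp2) was called with array quality weights and 1 with only the 2 groups compared. Log2 differences of that comparison changed sign on leaving out 1 rat for Csnk1d (-0.030 to 0.031), Csnk1e (-0.12 to 0.012) and Arntl (-0.54 to 0.030). Over all genes, leaving out 1 rat gave 1389 to 2453 calls in ZF against ZL, 176 to 570 in ZF-SGLT2i against ZF and 2241 to 3302 in ZF-SGLT2i against ZL. The cause of these changes was not tested.

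Rats of different groups share numbers only: over 9 pairs of the same number, deviations from the group means had r from -0.38 to 0.25. With the replicate block, 1 member (Wee1) was called in ZF against ZL, 1 (Usp2, adjusted p = 0.0150 by limma) in ZF-SGLT2i against ZF and 2 in ZF-SGLT2i against ZL. The log2 difference of Csnk1d in ZF-SGLT2i against ZF was then 0.029, without a call, and that of Usp2 in ZF against ZL was 0.41. Calls over all genes were 807 in ZF against ZL with the block and 2807 with array weights. Csnk1e had as few as 100 reads in a rat, and Ccnb1 and Cdc25c at most 34.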

Other observations

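DBP, TEF and HLF are known to drive genes of drug and heme metabolism and of vitamin B6 activation. Of 4 such targets tested, Por, which encodes the electron donor of the cytochromes P450, was 161 ± 13.6 CPM in ZL, 201 ± 9.87 CPM in ZF and 227 ± 21.2 CPM in ZF-SGLT2i rats (SD, n = 4 each). Por was higher in ZF than in ZL (limma, adjusted p = 0.0118) and in ZF-SGLT2i than in ZL (limma, adjusted p = 0.000538), with no overlap in either case. Genes without overlap and higher made up 8.67% and 12.9% of those tested in these comparisons. Pdxk, pyridoxal kinase, was 64.2 ± 3.24, 62.4 ± 6.84 and 85.0 ± 10.9 CPM in the same groups (SD, n = 4 each). It was higher in ZF-SGLT2i than in ZF (log2 difference 0.44, limma adjusted p = 0.0237), without overlap, as were 5.54% of the genes tested. Alas1, the first enzyme of heme synthesis, was lower in ZF-SGLT2i than in ZL (log2 difference -0.42, limma adjusted p = 0.0337). By limma, 1 of the 4 was called in ZF against ZL, 1 in ZF-SGLT2i against ZF and 3 in ZF-SGLT2i against ZL, where 18.8%, 3.15% and 27.4% of all genes tested were called.

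Of 7 hypoxia-induced genes tested, the class that also takes in Bhlhe40, Adm (adrenomedullin) was 11.6 ± 1.79 CPM in ZL and 17.4 ± 2.82 CPM in ZF, and Egln3 (an oxygen sensor) was 14.0 ± 4.24 and 22.8 ± 4.37 CPM (SD, n = 4 each). Both were higher in ZF (limma, adjusted p = 0.00961 and 0.0222), and the other 5 did not pass, where 8.19% of all genes tested were higher and 18.8% called in either direction. Adm and Pdk1 were higher in ZF-SGLT2i than in ZL (limma, adjusted p = 0.0298 and 0.0139), 2 of 7 where 12.4% of all genes tested were higher. In ZF-SGLT2i against ZF, limma, edgeR and DESeq2 called 0 of the 7, with 1 at an unadjusted p under 0.05 by limma. Limma called 3.15% of all genes tested there.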
